A study of Mus musculus with 6 samples.

Results

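The clustered replication-dependent histone genes code for the linker histone H1 and the core histones H2A, H2B, H3 and H4 that package newly made DNA. They were taken by name, as every listed gene whose symbol is H2ac, H2bc, H3c or H4c followed by a number, or H1f1 to H1f5. The rule found 42 genes among 25939 listed: 5 for H1, 6 for H2A, 12 for H2B, 10 for H3 and 9 for H4. It left out 7 clustered histone genes that the tables list under older symbols such as Hist1h4m. The family was selected on earlier results from the same FPKM values, and its members were then taken by name. Its differences between TMAO and Control are therefore descriptions, and the p-values come from the fit over all tested genes.

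RNA was sequenced from cultured cells isolated from mouse aorta and labelled as vascular smooth muscle cells, the cells that contract in the wall of arteries. There were 3 Control libraries and 3 of cells treated with TMAO, trimethylamine N-oxide, a metabolite made in the liver from a product of gut bacteria, each after 48 hours. The sources used here do not give the genotype, strain, age or sex of the mice, the dose of TMAO or the vehicle of the Control cells. GEO's labels do not say whether the 3 samples of a group came from separate animals or cultures, so each p-value rests on differences among samples that may be only technical.

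Most histone messages are unlike other messenger RNAs. They are made in S phase, when DNA is copied, and end not in a poly(A) tail but in a short RNA hairpin, the stem-loop, which is bound by the stem-loop binding protein Slbp while the RNA is cut just downstream of it. In cells that leave the cell cycle some histone genes also give longer messages that read past the stem-loop and carry a poly(A) tail. The libraries here were made with a stranded kit that selects poly(A) RNA, so a level below is that of histone RNA captured by such a kit, and the amount of the tailless form was not measured.

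The family's gene models were read for the stem-loop first, since messages cut after it carry no poly(A) tail. The pattern searched on the RNA strand was 16 bases long, with GG at positions 1 and 2, CTT at 5 to 7, T at 9, AG at 11 and 12, CC at 15 and 16 and any base elsewhere, and with the outer 6 bases on each side able to pair. It was present in the GENCODE M21 transcripts of 32 of the 42 members (76.2%) and of 30 of 21859 other protein-coding genes (0.137%), 16 of which are named as histone genes. The stem-loops of 8 members are shown because these members carry the levels and differences described below, or show the range of the sequence. Each is written 5′ to 3′ as DNA, with the 16 bases of the stem-loop in capitals and 5 bases on either side. All lie in the 3′ UTR, and coordinates are on mm10.
H1f2 (chr13:23739507-23739532, plus strand): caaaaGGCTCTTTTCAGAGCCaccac
H2ac6 (chr13:23683472-23683497, minus strand): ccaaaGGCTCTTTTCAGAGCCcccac
H2bc8 (chr13:23571838-23571863, plus strand): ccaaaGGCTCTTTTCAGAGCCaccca
H3c2 (chr13:23752815-23752840, plus strand): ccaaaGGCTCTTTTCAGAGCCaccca
H3c8 (chr13:23535884-23535909, plus strand): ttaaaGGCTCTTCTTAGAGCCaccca
H4c8 (chr13:23531453-23531478, plus strand): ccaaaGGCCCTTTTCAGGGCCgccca
H4c9 (chr13:22040961-22040986, minus strand): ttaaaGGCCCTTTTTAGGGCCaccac
H4c1 (chr13:23760795-23760820, minus strand): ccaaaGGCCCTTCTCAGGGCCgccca

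The commonest stem-loop, that of H1f2, H2ac6, H2bc8 and H3c2, was shared letter for letter by 17 members of the H1, H2A, H2B and H3 classes. A second form, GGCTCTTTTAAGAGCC, was found in 5 H2B and H3 members. The form of H4c8 was found in 4 H4 members and that of H4c9 in 2, H4c9 and H4c14. The forms of H3c8, H4c1, H2ac20 and H4c11 were each found in 1 member. Of the 10 members without the pattern, 7 had a model that ends with a stop codon and so holds no 3′ UTR (H1f5, H2ac15, H2bc13, H2bc15, H3c10, H3c11 and H4c12). The H1f1 model stops 1 base short of the end of the pattern. The models of H2bc4 and H2bc21 go past the stop codon and do not hold these letters.

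Of the 42 members, 38 lie on chromosome 13 and 4 (H2ac20, H2bc21, H3c15 and H4c14) on chromosome 3. Values are in FPKM, fragments scaled by exon length and library total, so that levels of different genes are compared per length. With the exon length and a total for each library, an FPKM value can be turned back into reads, and all 42 members gave whole reads in every library.

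Most of the histone signal came from 3 genes. H2bc4, an H2B gene, held 53.0% of the 16279 reads of the family over the 6 libraries, H1f2, a linker histone gene, held 25.0% and H4c9, an H4 gene, 7.89%. H2bc4 averaged 79.1 FPKM, H1f2 27.7 FPKM and H4c9 18.7 FPKM. The next was H4c8 at 3.60 FPKM, and 31 of the 42 members averaged under 1 FPKM. For comparison, among variant histone genes whose messages carry poly(A) tails, H2az1 stood at 291 ± 7.36 FPKM (SD, n = 3) in Control and H3f3b at 110 ± 1.42 FPKM.

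**Figure D1:**
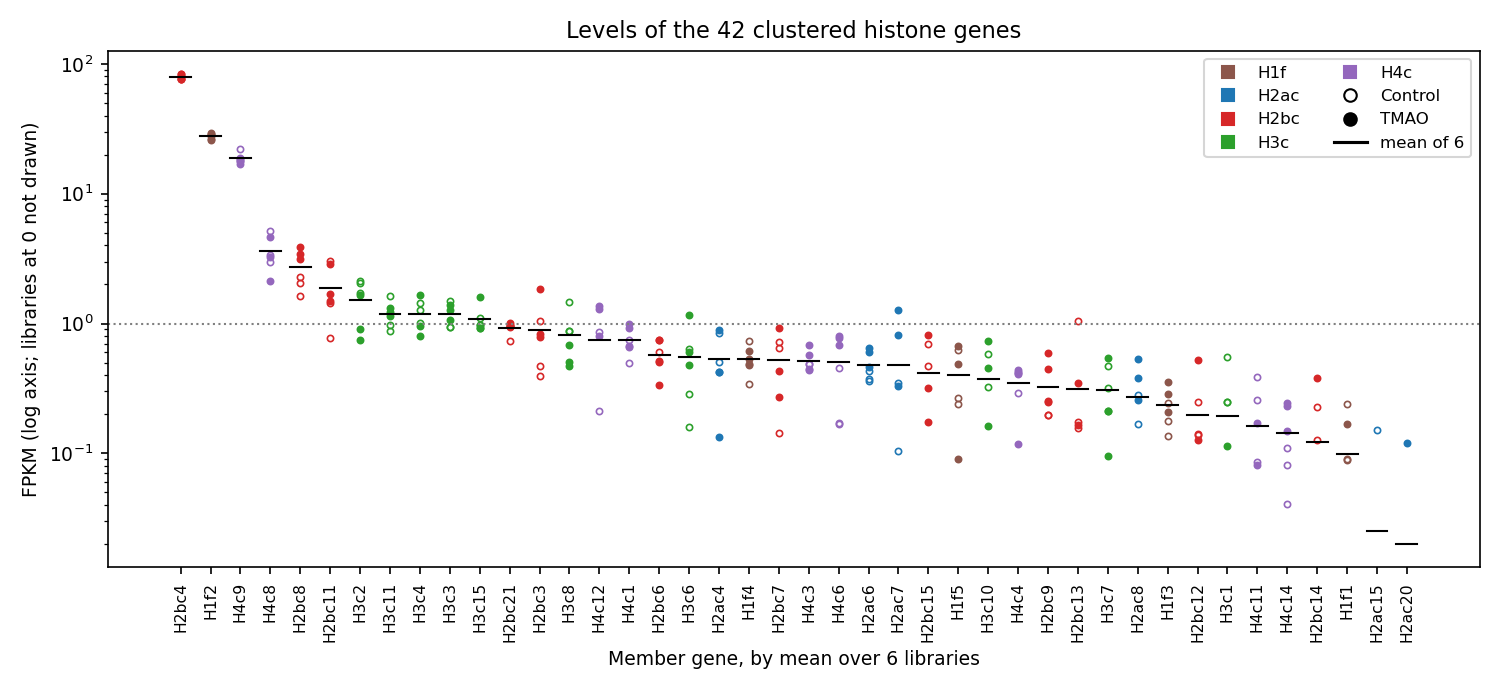
FPKM of each of the 42 members in each library on a log axis, ordered by the mean over 6 libraries (black bar); open points are Control and filled points TMAO, coloured by histone class. H2bc4, H1f2 and H4c9 stand apart at 79.1, 27.7 and 18.7 FPKM, and 31 members have a mean under 1 FPKM, the dotted line.

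The 3 leading genes have models with more sequence than a cut histone message. H2bc4 (ENSMUSG00000018102, chromosome 13, plus strand) is modelled as a spliced transcript of 1156 bases with exons at 23684199 to 23684621 and 23692176 to 23692908, and this transcript does not hold the stem-loop pattern. H1f2 (ENSMUSG00000036181, chromosome 13, 23738808 to 23740367, plus strand) has a single exon that runs 840 bases past its stem-loop and has the poly(A) signal AATAAA in its last 40 bases. H4c9 (ENSMUSG00000060639, chromosome 13, 22040636 to 22041362, minus strand) runs 330 bases past its stem-loop and has the signal ATTAAA there. A long model did not by itself go with a high FPKM, but FPKM is scaled by the length of the whole model. H1f3 held 164 reads at 0.234 FPKM, and H4c8 held 161 reads at 3.60 FPKM. The levels that follow therefore do not compare numbers of reads. Of the 18 members whose models run more than 100 bases past the stem-loop, 4 passed the filter used for testing and their mean levels ranged from 0.143 to 27.7 FPKM with a median of 0.526 FPKM. The 14 members with at most 100 bases after it ranged from 0.0201 to 3.60 FPKM with a median of 0.530 FPKM, and 4 of them passed. Either poly(A) signal was present at the end of 9 of the 42 models, among them H4c11 and H4c14 at 0.164 and 0.143 FPKM.

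**Figure D2:**
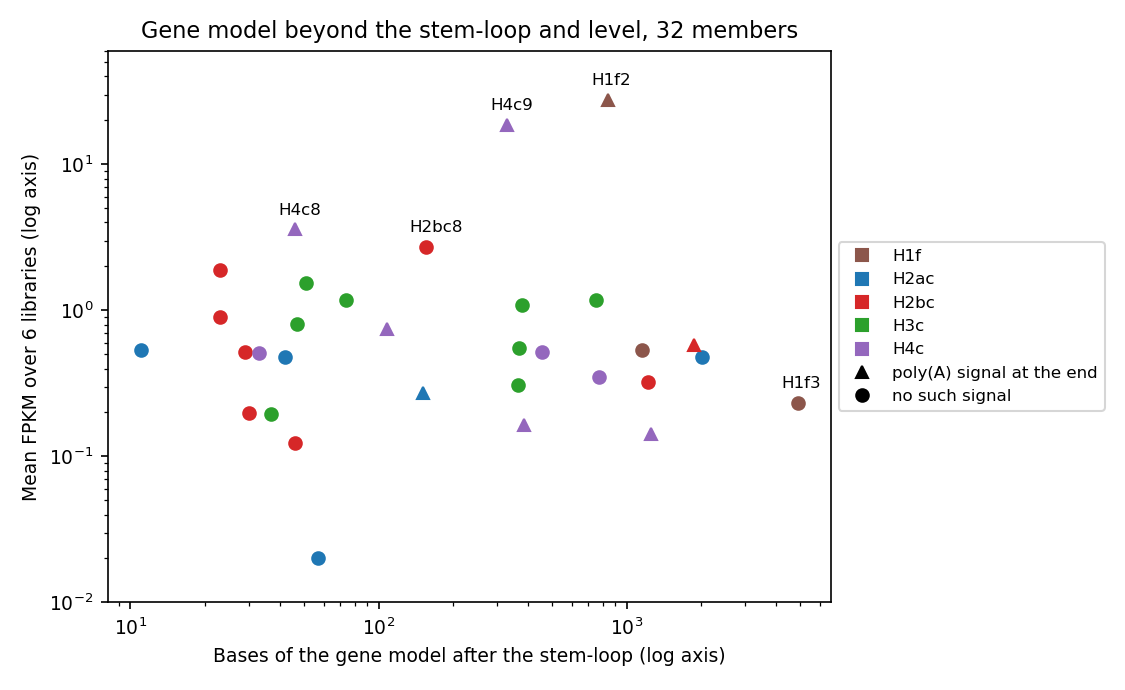
Mean FPKM over 6 libraries (log axis) against the number of bases of the gene model after the stem-loop (log axis) for the 32 members with the pattern; triangles have AATAAA or ATTAAA in the last 40 bases of the model. H1f2 and H4c9 are high with 840 and 330 bases after the stem-loop, while H1f3, with 4884 bases, is at 0.234 FPKM. FPKM is scaled by the length of the whole model, and H1f3 holds 164 reads over 7425 bases.

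Many members are near copies of each other, and reads that match several genes may be dropped or shared between them. The authors' rule for such reads is unknown here. The share of a member's stretches of 100 bases that occur in the transcripts of no other gene ranged from 8.0% (H3c10) to the whole sequence (5 members), with a median of 70.4%. For 10 members it was under 50%, so their levels are uncertain. Among the leading genes the share was 74.6% for H2bc4, 94.9% for H1f2 and 84.9% for H4c9, and the gene that shares most with H2bc4 is H2bc8. Exons overlap in a few places. H2bc6 and H1f4 share exon bases on the same strand, over 11.2% of H2bc6 and 25.7% of H1f4 together with Gm11398. H2ac6 shares 4.35% of its exon bases with Gm24991 on the same strand. Predicted genes on the opposite strand cover between 5.56% (H2ac6) and 35.1% (H2ac15) of the exon bases of all 6 H2A members, and the sources used here do not give the strand setting of the counting.

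Histone genes often sit in divergent pairs that start away from each other across a short gap. Of the members, 5 pairs had a gap of 175 to 295 bases. The genes of the pair H2ac6 and H2bc4, 250 bases apart, differed most. H2bc4 averaged 79.1 FPKM and H2ac6 0.480 FPKM, a ratio of 165, from 8623 and 112 reads. H2bc8 and H2ac8 averaged 2.73 and 0.271 FPKM, a ratio of 10.1. H2bc7 and H2ac7 were near each other at 0.523 and 0.478 FPKM. In the other pairs, H2bc21 stood at 0.929 FPKM and its partner H2ac20 had 1 read in all, and H2bc15 stood at 0.414 FPKM and H2ac15 had 1 read in all. In each of the pairs apart from H2bc7 and H2ac7 the H2B gene had at least 10.1 times the FPKM of the H2A gene, with 1 read behind the H2A value in 2 of them.

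The gap between H2ac6 and H2bc4 is shown because a single short stretch lies before both genes. The sequence covers 239 of these bases and is RefSeq's on GRCm38.p6, chr13:23683960-23684198, read on the minus strand toward H2ac6, with 3 motifs searched on both strands in capitals: the octamer ATTTGCAT known from H2B promoters, CCAAT and TATAAA.
H2ac6 and H2bc4 gap: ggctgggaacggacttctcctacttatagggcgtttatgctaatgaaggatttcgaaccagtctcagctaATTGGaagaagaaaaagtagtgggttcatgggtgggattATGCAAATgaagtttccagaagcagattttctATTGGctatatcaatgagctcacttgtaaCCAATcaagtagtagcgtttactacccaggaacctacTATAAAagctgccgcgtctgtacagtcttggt
It holds the octamer, CCAAT at 3 places and TATAAA. Of the members, 37 had a RefSeq promoter, with 38 windows of 250 bases before a start. The octamer was in 5 of 11 H2B windows, 4 of 6 H2A windows and 0 of the H1, H3 and H4 windows, together 23.7% against 1.56% of 32793 other promoters. CCAAT was in 84.2% of member windows against 33.8%, and TATAAA in 55.3% against 12.3%. The windows of the divergent genes H2ac8 and H2bc8 overlap, and the same octamer site is counted in both. Those of H2ac7 and H2bc7 and of H2ac15 and H2bc15 also overlap, so a site there can be counted in both. These are matches of letters and do not show binding.

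The comparison of TMAO with Control asks how TMAO changes the RNA of these cells. Of the 42 members, 10 had at least 1 FPKM in at least 3 libraries and were tested with limma on log2(FPKM + 1), with p-values adjusted by the Benjamini-Hochberg method over 11062 genes and a threshold of 0.05. None of the 10 passed, where 0.181% of all tested genes did, 0.0723% as higher and 0.108% as lower in TMAO. At an unadjusted p under 0.05 there were 2 members, H2bc8 and H3c2, where 13.1% of all tested genes were. With voom on the recovered reads 0 of the 10 passed, where 0.89% of 10893 genes did, and 2 had an unadjusted p under 0.05, where 14.1% of those genes had. Of the 10, 5 had a positive and 5 a negative log2 fold change, with a median of -0.01 beside 0.02 over all tested genes. The pseudocount of 1 makes fold changes of low genes look smaller than they are. In bulk RNA, fewer cells of a type (or in S phase) and less RNA per cell cannot be told apart.

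The linker histone H1, which binds DNA between nucleosomes, was represented almost entirely by H1f2. It stood at 29.2, 27.9 and 28.9 FPKM in Control libraries 1 to 3 and at 25.8, 26.2 and 28.3 in TMAO libraries 1 to 3. TMAO 3 lies within the Control range and TMAO 1 and 2 below it. On the log2 scale TMAO minus Control was -0.10 ± 0.051 (SE, adjusted p = 0.46. by limma) The other H1 genes did not reach the filter. H1f3, H1f4, H1f5 and H1f1 averaged 0.234, 0.533, 0.398 and 0.0983 FPKM, from 164, 98, 28 and 7 reads in all, and the groups overlapped for each.

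None of the 6 H2A genes reached the filter. They held 182 reads in all, of which 112 were from H2ac6. Their reads summed to 23, 22 and 23 in Control libraries 1 to 3 and to 41, 35 and 38 in TMAO libraries 1 to 3, or 1.45 ± 0.0819 and 2.40 ± 0.183 RPM (reads scaled by the library total, not by gene length; SD, n = 3). The TMAO libraries all lay above the Control libraries in this sum, with a ratio of 1.65. H2ac6 had 14, 16 and 15 reads in Control and 19, 24 and 24 in TMAO. H2ac7 had 3, 0 and 1 reads in Control and 12, 3 and 7 in TMAO, so that its groups overlapped in FPKM. H2ac8 and H2ac4 likewise overlapped, at 0.151 and 0.390 FPKM and at 0.590 and 0.484 FPKM in Control and TMAO. H2ac15 and H2ac20 had 1 read each in all 6 libraries. No test was made on the sum, and 3 genes of this class (H2ac4, H2ac7 and H2ac8) had 47.6%, 36.4% and 69.3% of their sequence to themselves. H2ac6, with most of the reads, had 91.9%.

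H2B, the partner of H2A in the nucleosome, had the strongest gene and the gene nearest to the threshold. H2bc4 stood at 80.1, 76.5 and 76.1 FPKM in the Control and at 75.8, 83.2 and 83.2 FPKM in the TMAO libraries. TMAO 1 was the lowest of all and TMAO 2 and 3 the highest, so the groups overlapped. Its log2 fold change was 0.06 ± 0.049 (SE, limma adjusted p = 0.684).

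H2bc8 (ENSMUSG00000058385, chromosome 13, 23571396 to 23572013, plus strand, 1 exon) stood at 2.26, 2.04 and 1.64 FPKM in the Control and at 3.43, 3.15 and 3.89 FPKM in the TMAO libraries, from 21, 19 and 17 and from 35, 31 and 36 reads. Every TMAO library lay above every Control library, as for 12.4% of all tested genes. The log2 fold change was 0.59 ± 0.099 (SE), and the limma adjusted p = 0.0523 missed the threshold. The ratio of mean FPKM was 1.76. The gene passed without Control replicate 1 (adjusted p = 0.0469), without TMAO replicate 2 (adjusted p = 0.0371) and with a filter of 10 mean reads (adjusted p = 0.0494), and over all 15 alternatives the limma or voom adjusted p ranged from 0.0371 to 0.341. Only 55.1% of its stretches of 100 bases are its own, and H2bc4, whose reads outnumber those of H2bc8 by 8623 to 159, is the gene it shares most with. The part of shared sequence in this difference was not tested.

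H2bc11 was the third H2B gene tested. It stood at 3.02, 1.43 and 0.771 FPKM in the Control and at 1.70, 1.49 and 2.88 FPKM in the TMAO libraries, and its groups overlapped widely (0.20 ± 0.362 on the log2 scale, adjusted p = 0.874 by limma). The 9 H2B genes below the filter averaged 0.123 to 0.929 FPKM. Of these, H2bc9 and H2bc21 had every TMAO library above every Control library, as did 9.12% of all listed genes. H2bc9 had 5, 5 and 7 reads in Control and 7, 12 and 15 in TMAO. H2bc21 was near level, at 0.941, 0.735 and 0.954 FPKM in the Control and at 0.970, 0.957 and 1.02 FPKM in the TMAO libraries. Its reads were 37, 29 and 42 in Control and 42, 40 and 40 in TMAO. H2bc3, H2bc6, H2bc7, H2bc12, H2bc13, H2bc14 and H2bc15 overlapped. Without H2bc4 the H2B genes summed to 8.46 ± 0.620 RPM in Control and 9.997 ± 0.816 in TMAO, with overlap.

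**Figure D3:**
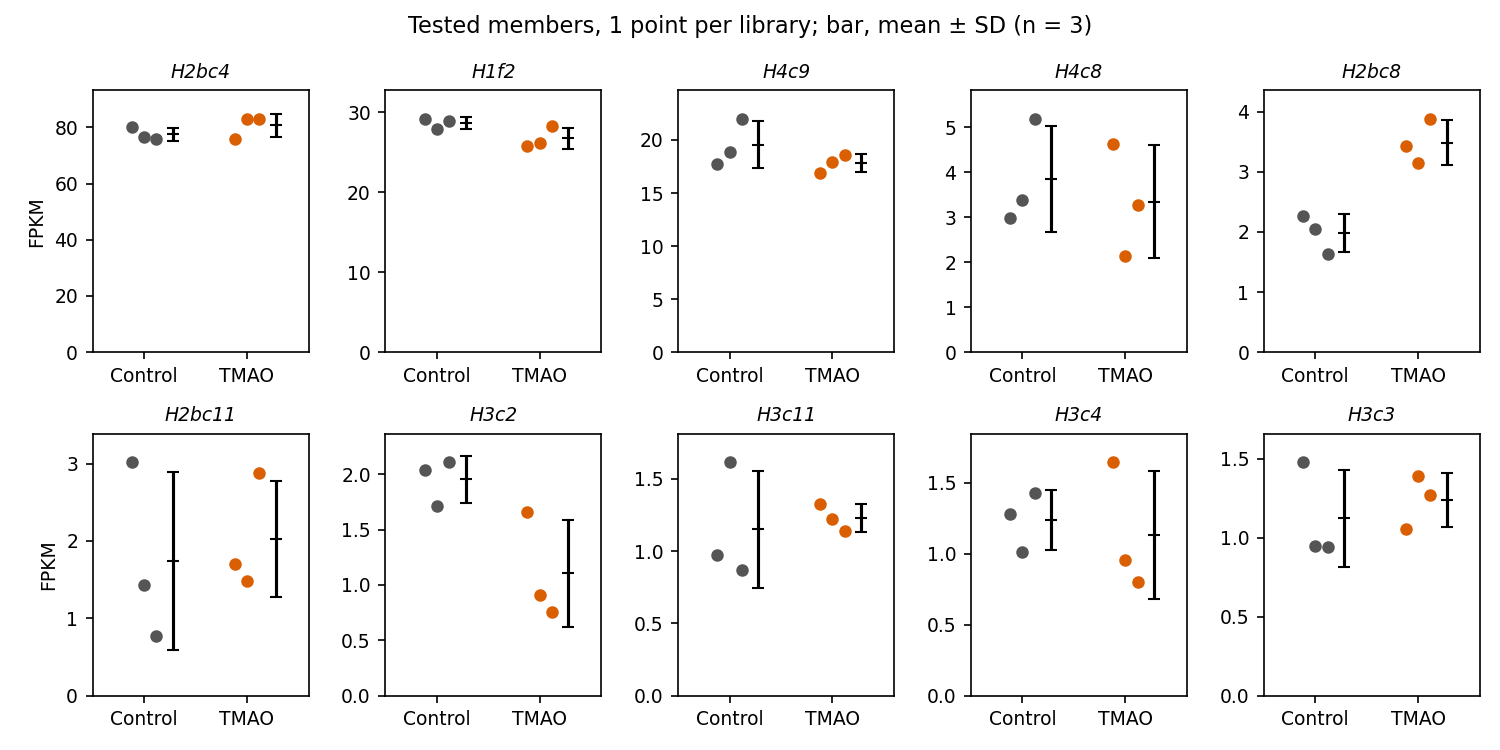
FPKM of the 10 members tested, 1 point per library (grey Control, orange TMAO), with mean ± SD beside the points (n = 3) and axes that start at 0. H2bc8 and H3c2 are the members whose groups do not overlap, at 1.64 to 2.26 against 3.15 to 3.89 FPKM and at 1.71 to 2.11 against 0.753 to 1.66 FPKM. Over all tested genes, every TMAO library was above every Control library for 12.4% and below for 6.23%.

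H3, which carries many of the modified residues of chromatin, had 4 genes tested. H3c2 (ENSMUSG00000069267, chromosome 13, 23752267 to 23752886, plus strand, 1 exon) stood at 2.04, 1.71 and 2.11 FPKM in the Control and at 1.66, 0.910 and 0.753 FPKM in the TMAO libraries, from 19, 16 and 22 and from 17, 9 and 7 reads. The TMAO libraries lay below the Control libraries, with TMAO 1 close to Control 2. The log2 fold change was -0.51 ± 0.147 (SE, limma adjusted p = 0.207), and without TMAO replicate 1 the gene passed at -0.69 (limma adjusted p = 0.0452). Its range over the 15 alternatives was 0.0452 to 0.533, and 43.4% of its sequence was its own.

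The other tested H3 genes overlapped. H3c3 stood at 1.48, 0.948 and 0.944 FPKM in the Control and at 1.06, 1.39 and 1.27 FPKM in the TMAO libraries (0.08 on the log2 scale, adjusted p = 0.809 by limma). H3c4 stood at 1.28, 1.01 and 1.43 FPKM and at 1.65, 0.954 and 0.801 FPKM (-0.09 on the log2 scale, adjusted p = 0.852 by limma). H3c11 stood at 0.972, 1.62 and 0.869 FPKM and at 1.33, 1.22 and 1.14 FPKM (0.06 on the log2 scale, adjusted p = 0.875 by limma), and had 31.4% of its sequence to itself. The spread of these genes between libraries of a group was as large as the difference between groups.

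Below the filter, H3c8 and H3c1 also had all TMAO libraries below the Control libraries, as did 3.82% of all listed genes. H3c8 had 7, 7 and 13 reads in Control and 6, 4 and 4 in TMAO, and H3c1 had 2, 2 and 5 against 1, 0 and 0. H3c6, H3c7, H3c10 and H3c15 overlapped, at means of 0.309 to 1.08 FPKM. The 10 H3 genes together summed to 6.59 ± 0.814 RPM in Control and 6.04 ± 1.57 in TMAO. TMAO 1, at 7.75, was the highest of all 6 libraries and TMAO 3, at 4.67, the lowest.

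H4, the partner of H3, was mostly H4c9. It stood at 17.8, 18.9 and 22.0 FPKM in the Control and at 16.9, 17.9 and 18.6 FPKM in the TMAO libraries (-0.12 ± 0.075 on the log2 scale, SE, adjusted p = 0.535 by limma). Control 3 was the highest and the other 5 libraries lay between 16.9 and 18.9 FPKM. H4c8 stood at 2.98, 3.39 and 5.19 FPKM and at 4.64, 2.13 and 3.26 FPKM (-0.17 ± 0.276 on the log2 scale, adjusted p = 0.848 by limma), again with Control 3 highest. The 7 H4 genes below the filter averaged 0.143 to 0.752 FPKM. Of these H4c6 had 1, 1 and 3 reads in Control and 5, 5 and 4 in TMAO, and H4c14 had 1, 2 and 3 against 4, 6 and 6. Both had every TMAO library above every Control library in FPKM, as did 9.12% of all listed genes. H4c1, H4c3, H4c4, H4c11 and H4c12 overlapped.

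Over all 42 members, every TMAO library lay above every Control library in FPKM for 6 (14.3%) and below for 3 (7.14%), and the groups overlapped for 33. Over all 25939 listed genes the shares were 9.12% and 3.82%, and over the 11062 tested genes 12.4% and 6.23%. The 6 that were above are H2A, H2B and H4 genes (H2ac6, H2bc8, H2bc9, H2bc21, H4c6 and H4c14), and the 3 that were below are H3 genes (H3c1, H3c2 and H3c8). Most of these rest on fewer than 30 reads per library, and the difference between classes was not tested. The nearest libraries of the 2 groups were close for H2bc9 (0.248 FPKM in Control 3, 0.252 in TMAO 1). They were also close for H2bc21 (0.954 FPKM in Control 3, 0.957 in TMAO 2). No size factors were applied to these FPKM values.

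The 3 leading genes together stood at 149 ± 2.73 RPM in Control and 148 ± 7.06 in TMAO, a ratio of 0.996. The other 39 members together stood at 22.4, 22.2 and 23.7 RPM in Control and 28.3, 25.0 and 24.3 in TMAO, a ratio of 1.14. Every TMAO library was above every Control library in that sum, but the gap between TMAO 3 and Control 3 was smaller than the spread among the TMAO libraries. The 3 genes were set apart after their reads were seen, and no test was made on the sums.

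**Figure D4:**
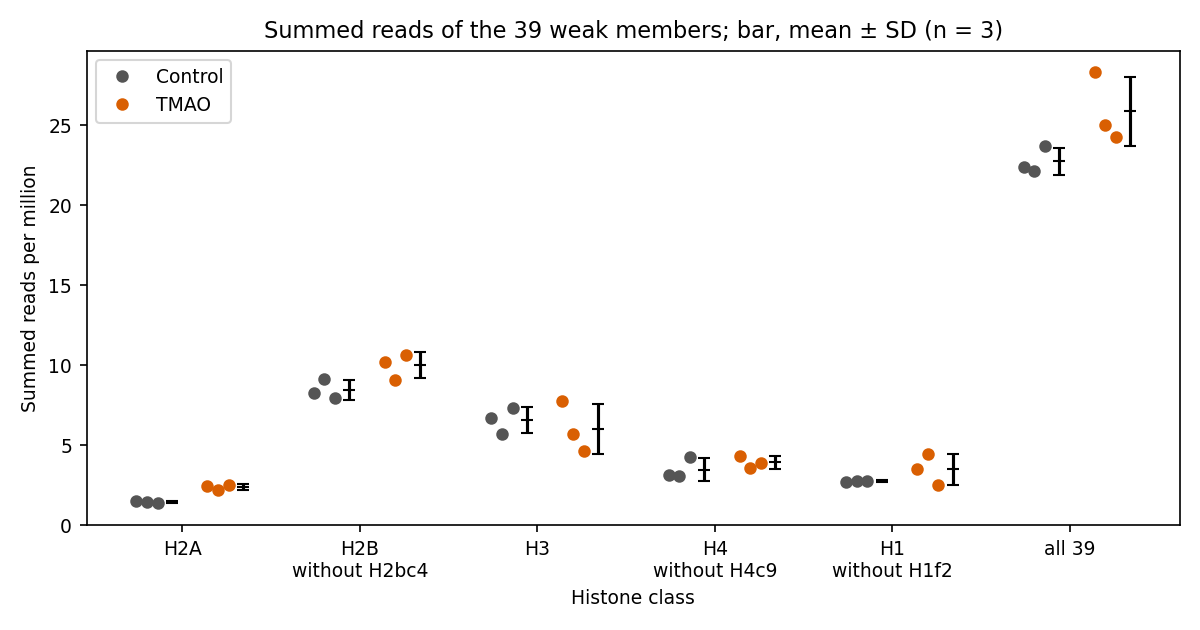
Summed RPM of the 39 members other than H2bc4, H1f2 and H4c9, by histone class and in total, 1 point per library (grey Control, orange TMAO) with mean ± SD (n = 3). The H2A sum goes from 1.45 to 2.40 and the sum of all 39 from 22.8 to 25.9 without overlap, and the groups overlap in the other classes.

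Of a list of other RNAs that lack a poly(A) tail, 0 of 5 tested genes passed, where 0.181% of all tested genes did. An unadjusted limma p under 0.05 was found for 2, beside 13.1% of all tested genes. Every TMAO library lay above every Control library for Malat1 and Neat1, as for 12.4% of all tested genes. Malat1, a nuclear RNA with a tailless 3′ end, stood at 75.0, 113 and 84.4 FPKM in the Control and at 218, 153 and 183 FPKM in the TMAO libraries (1.02 on the log2 scale, adjusted p = 0.196 by limma). Neat1, whose long form has such an end, stood at 2.74, 3.38 and 3.09 FPKM in the Control and at 6.08, 3.57 and 5.26 FPKM in the TMAO libraries (0.53 on the log2 scale, adjusted p = 0.231 by limma). The groups overlapped for the small RNAs Rnu73b, Rn7sk and Rnu12, with 0.84, 0.59 and 0.38 on the log2 scale (adjusted p = 0.386, 0.521 and 0.844 by limma). All 5 log2 fold changes were positive, with a median of 0.59. Below the filter, mean FPKM was lower in TMAO than in Control for Rny1, Rny3 and Scarna6 and higher for Scarna2, with overlap for each. The summed level of the 9 listed genes was 91.2 to 128 FPKM in Control and 173 to 244 FPKM in TMAO, most of it Malat1. Reads in 667 weak genes that lie inside an expressed gene on the same strand, where unspliced RNA of the host can also be counted, stood at 56.9 to 78.3 RPM in Control and 109 to 141 in TMAO, a ratio of 1.86. Whether unspliced RNA of a host gene is counted in the sums of H2A and of the 39 weak members was not tested.

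In the list of genes for synthesis and 3′ end formation of histone messages 0 of 20 tested genes passed, where 0.181% of all tested genes did. An unadjusted limma p under 0.05 was found for 0 of the 20, beside 13.1% of all tested genes. The list had 13 positive and 7 negative fold changes and a median of 0.02 on the log2 scale. Slbp stood at 9.44 ± 0.185 FPKM in the Control and at 9.57 ± 0.461 FPKM in the TMAO libraries (0.02 on the log2 scale, adjusted p = 0.936 by limma). Npat, the cyclin E target that activates histone transcription, stood at 6.49 ± 0.624 and 6.52 ± 0.954 FPKM (0.00 on the log2 scale, adjusted p = 0.995 by limma). The smallest p-values of the list belonged to Srrt, a cap-binding complex partner (0.16 on the log2 scale, adjusted p = 0.439 by limma), Lsm10, a subunit of the U7 particle that cuts histone RNA (0.09, adjusted p = 0.46), Cpsf3, the endonuclease (0.12, adjusted p = 0.467), and Casp8ap2, which is needed for histone expression (-0.15, adjusted p = 0.563).

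Among histone chaperones and importers 0 of 25 tested genes passed, where 0.181% of all tested genes did. Of the 25, 6 had an unadjusted limma p under 0.05, beside 13.1% of all tested genes. Npm1, a nucleolar chaperone, averaged 520 ± 14.8 FPKM in Control and 467 ± 12.3 in TMAO (-0.16 on the log2 scale, adjusted p = 0.168 by limma). Hat1, which acetylates new H4, averaged 35.98 ± 1.07 FPKM in Control and 31.97 ± 1.49 in TMAO (-0.17 on the log2 scale, adjusted p = 0.211 by limma). Hjurp, the chaperone of the centromeric H3 variant, had 0.35 (limma adjusted p = 0.245) and the importin Ipo5 0.11 (limma adjusted p = 0.303). Hjurp passed only in the fit without TMAO replicate 2 among the alternatives.

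In the DNA replication list 0 of 33 tested genes passed, where 0.181% of all tested genes did. Of the 33, 2 had an unadjusted limma p under 0.05, beside 13.1% of all tested genes. The median log2 fold change of the list was -0.01. Ccne2 (cyclin E2) had -0.28 (limma adjusted p = 0.188), the kinase gene Cdk2 0.18 (adjusted p = 0.256), the helicase subunit gene Mcm5 -0.14 (adjusted p = 0.386) and the clamp gene Pcna -0.11 (adjusted p = 0.448).

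Of the 10 tested genes in the list of variant histones with poly(A) tails, 0 passed, where 0.181% of all tested genes did. Of the 10, 5 had a positive and 5 a negative log2 fold change, and the median was 0.02. Whether any of them also gives a message without a tail was not tested. An unadjusted limma p under 0.05 was found for 3, beside 13.1% of all tested genes. H3f3b, which codes for the replacement histone H3.3, stood at 110, 109 and 112 FPKM in the Control and at 121, 120 and 121 FPKM in the TMAO libraries without overlap (0.13 on the log2 scale, adjusted p = 0.207 by limma). H3f3a, which codes for the same protein, overlapped (0.08 on the log2 scale, adjusted p = 0.515 by limma). H2ax, the variant marked at DNA breaks, averaged 14.5 ± 0.721 FPKM in Control and 12.9 ± 0.810 in TMAO (-0.16 on the log2 scale, adjusted p = 0.322 by limma), H2aj had 0.16 (adjusted p = 0.374) and Macroh2a2 -0.20 (adjusted p = 0.385). H2az1 and H1f0 had -0.06 and -0.03 (limma adjusted p = 0.633 and 0.863).

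The libraries held 14991252 to 16806728 reads by the totals the FPKM values imply, and a single read in 1 kb was worth 0.0595 to 0.0667 FPKM. Of the smooth muscle markers that check the labelled cell type, Acta2, Myl9 and Smtn averaged 485, 96.9 and 4.47 FPKM, while Tagln, Cnn1 and Myh11 were at 0.809, 0.660 and 0.0946 FPKM. Only 3 of these 6 markers passed the filter for testing, so they bear out the label in part. Fibroblast markers summed to 446 to 488 FPKM in Control and 447 to 480 FPKM in TMAO, most of it Ly6a. Pdgfra, Dcn, Dpt, Lum and Pi16 averaged 25.15, 20.7, 7.11, 4.06 and 0.130 FPKM. Macrophage markers summed to 74.5 to 91.0 and 70.3 to 78.9 FPKM, most of it Lyz2. Cd68, Csf1r, Adgre1 and Ptprc averaged 4.225, 0.7685, 0.505 and 0.0400 FPKM. Endothelial markers summed to 15.3 to 16.6 and 12.4 to 12.8 FPKM, most of it Emcn, with Kdr, Pecam1 and Cdh5 at 0.155, 0.0618 and 0.0293 FPKM. Emcn had -0.33 on the log2 scale and missed the threshold (adjusted p = 0.0504 by limma).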

How the data were processed

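The authors deposited 1 table per library in FPKM, with gene identifiers and symbols; Control 1 has PKM in its header but the same steps in its values. Per the labels' protocols, Trizol was used for extraction and a stranded mRNA kit for the libraries. The submitters' processing notes name Trimmomatic, HISAT2, Cufflinks, HTSeq and mm10; the sources used here give no versions, annotation or strand setting.

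With GENCODE M21 exon lengths and 1 total per library, 25499 of 25885 annotated genes (98.5%) gave whole reads within 0.01 in all libraries. The filter was 1 FPKM or more in 3 or more libraries, and the test was limma 3.58.1 (R 4.3.3; trend, robust) on log2(FPKM + 1). Scripts were tested on simulated data. Tables and plots used Python 3.11.15 with pandas 2.3.3, numpy 2.4.6 and matplotlib 3.10.9.

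Earlier results of these data were known when the members, the 5 gene lists and the naming rule were chosen. The rule names every tested member, with library values for the 8 smallest p and 4 highest levels (here given for all 10), and in each list the 4 tested genes with the smallest p plus Slbp, Npat, Malat1 and Neat1; others were named after their values were seen. Alternatives were other filters, pseudocount, scalings and variance, voom on recovered reads, the replicate block and each library left out. Within each group, no library repeated another by a chi-square test of reads over 13240 or 13241 genes (chi-square per degree of freedom of at least 2.89); pairs across groups were not compared.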

Additional observations from a re-analysis of the deposited data

How the results depend on the processing

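The count of 0 members called became 1 with a filter of 10 mean reads (H2bc8), and ranged from 0 to 1 with each library left out: 1 without Control replicate 1 or TMAO replicate 2 (H2bc8) and 1 without TMAO replicate 1 (H3c2). It was 0 under the other alternatives run, with the replicate number as a block among them. Deviations of same-numbered libraries correlated at -0.086, -0.104 and 0.056, and those of other pairs at -0.061 to 0.141. With 3 libraries per group this cannot show whether the numbers pair the libraries. The block gave H2bc8 a limma adjusted p = 0.0966. The median log2 fold change of the members tested, -0.0148, became 0.0554 with no filter (42 members), 0.0604 with a filter of 0.5 FPKM and 0.0561 with a filter of 10 mean reads, which test more members, and ranged from -0.0453 to 0.0341 with each library left out. With each library left out, log2 fold changes ranged from -0.077 to 0.5144 for H2bc11, -0.029 to 0.2134 for H3c11, -0.3816 to 0.0416 for H4c8 and -0.2513 to 0.0266 for H3c4. The sign turned without Control replicate 3 for H2bc11, H3c11 and H4c8 (0.0156), without TMAO replicate 2 for H4c8 and without TMAO replicate 3 for H3c4; the cause was not tested. The ratio of the H4 sum in FPKM ranged from 0.932 to 1.05 with each library left out, around 0.972. Called genes of the gene lists numbered 0 to 2 (Hjurp and Neat1, without TMAO replicate 2). The median share of sequence not found elsewhere was 55.2% with stretches of 50 bases and 81.5% with 150. Members under 30 reads per library are limited by counting error.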

Other observations

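Of the 7 clustered histone genes listed under older symbols, which the rule by name leaves out, 2 H4 genes passed the filter. Hist1h4m stood at 2.49, 5.12 and 4.29 FPKM in Control and 3.76, 4.37 and 3.82 FPKM in TMAO, with a log2 fold change of 0.04 ± 0.209 (SE, limma adjusted p = 0.959). Hist1h4n stood at 1.39, 1.54 and 1.11 FPKM in Control and 1.55, 1.17 and 1.24 FPKM in TMAO (-0.02 ± 0.103, limma adjusted p = 0.965). The groups overlapped for both. The others, Hist1h2an, Hist1h2ao, Hist1h2bp, Hist1h2bq and Hist1h2br, averaged 0.0218 to 0.236 FPKM.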
